A study of Quercus suber with 11 samples.

Results

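The June harvest of cork oak (Quercus suber) innercork was compared with the April harvest over every locus of the deposited expression table that was expressed above a minimum level. Innercork is the newly made, living cork on the inner face of the plank, with the phellogenic tissue that stays attached when the plank is stripped. RNA-seq values were used for 4 April trees and 3 June trees, and 4 July trees entered the model to estimate the spread between trees, so 7 of the 11 trees of the series carry the comparison. All of them were trees of a cork oak forest near Girona that still bore virgin cork, with no treatment described. Each tree gave 1 library, and no tree was harvested in more than 1 month. Of the 32024 loci in the table, 22426 had a mean regularized log (rlog) value over the 11 trees of at least log2 of 10 and were tested. An Arabidopsis identifier, the most similar protein of that species, was given for 21787 of them, which stood for 12264 different Arabidopsis genes, called homologs here.

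Cork is made by the phellogen, a cylinder of meristem cells that divides to leave phellem cells on its outer side. Phellem cells enlarge, line their walls with suberin, a polyester of fatty acids, glycerol and ferulic acid, and die. In the Mediterranean climate of cork oak, phellogen activity starts in spring and the following months bring rising heat and drought, to which plants respond with chaperone proteins, protective sugars and stress hormones.

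Values are rlog values on the log2 scale, which the authors made from read counts, and the read total of each tree cannot be recovered from them, so no depth is given here. The shrinkage in rlog pulls loci with few reads toward their mean, and the differences of such loci are understated. Suberin synthesis genes, which mark phellem, held 3.51 to 5.0% of the summed linear values in the April trees and 4.93 to 5.52% in the June trees. Markers of green tissue, of which 8 of 22 loci were above the minimum, held 0.0141 to 0.0178% of the sum in April and 0.0134 to 0.0176% in June. The most abundant of them, RBCS (LOC112025335), had a log2 difference of 0.03 between the months, and 1 of the 8, an RCA locus (LOC112022383), was higher in June by 0.91 (limma adjusted p = 0.0474). Phloem markers (8 of 19 loci above the minimum) held 0.0162 to 0.0392% in April and 0.0483 to 0.078% in June, and xylem vessel markers (3 of 6 loci) at most 0.00291% in any April or June tree. Ribosomal RNA loci held 1.98 to 4.51% in April and 5.4 to 9.26% in June, although the authors had filtered ribosomal RNA from the reads. The phloem and ribosomal RNA shares did not overlap between the months, and their part in the results below was not tested. April replicate 2 stood apart from the other April trees, so counts are also given without it.

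Between April and June, 327 loci were differentially expressed genes (DEGs), that is, loci with a limma p of 0.01 or less after Benjamini-Hochberg adjustment and a log2 fold change (log2FC, the June mean minus the April mean of rlog) above 1 or below -1. They made up 1.46% of the loci tested. Of these, 223 (0.994% of the loci) were higher in June and 104 (0.464%) were lower. At an adjusted p of at most 0.05 with no minimum change, 1250 loci (5.57%) rose and 949 (4.23%) fell, and "rose" and "fell" below refer to this rule. At an unadjusted p under 0.05, 14.2% of all loci were higher and 14.1% lower in June. Over all loci tested the median log2FC was -0.02. Of the 22426 loci, 10770 had a higher June mean and 11656 a lower one, the background for such counts in the lists below. Among the larger changes, 55 DEGs had a log2FC above 2 and 17 had one below -2. Without April replicate 2 the same test gave 443 DEGs higher and 491 lower in June, and without June replicate 1 it gave 16 and 8.

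All 327 DEGs had April and June trees that did not overlap, which their selection on the same values makes likely. Over all loci, 13.9% had every June tree above every April tree and 13% had every June tree below. By locus name, the RefSeq gene table listed 285 of the DEGs as protein-coding and 5 as pseudogenes and did not hold 30. An identifier was given for 323 DEGs, which stood for 305 homologs. The threshold on the change cut through a continuous range, with 48 DEGs under an absolute log2FC of 1.1 and 37 further loci at 0.9 to 1 that met the p threshold.

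The largest rise was in a homolog of AT2G21100 (LOC112026141), a dirigent-like protein of the family that steers the coupling of phenolic radicals into lignans. Its rlog was 3.85, 4.28, 3.89 and 3.72 in the April trees and 10.54, 10.63 and 10.65 in the June trees. All April trees were near the lowest level of the table and the June trees lay together, with a log2FC of 6.68 (SE 1.17, limma adjusted p = 0.00869). The SE draws on the July trees too. Here and at the following locus it is wider than the April and June values alone would give. The next was a homolog of AT5G45060 (LOC112040887), a nucleotide-binding leucine-rich repeat receptor, with 3.33, 3.59, 3.36 and 3.3 in April, 9.02, 9.86 and 9.18 in June and a log2FC of 5.96 (SE 1.02, adjusted p = 0.00826). A homolog of AT3G07040 (LOC112003530), a receptor of the same class, had an rlog of 4.11, 4.04, 5.13 and 3.94 in April and 8.14, 8.02 and 8.09 in June, with a log2FC of 3.78 (SE 0.38, adjusted p = 0.00126). In both receptors the months were separated by more than the whole range within either month. The receptor kinase homolog of AT1G51800 (LOC111987557) had a log2FC of 4.16 (SE 0.61, adjusted p = 0.00417).

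The other leading rises were enzymes and proteins of varied function. A homolog of AT2G26710 (LOC112036050), a cytochrome P450 that inactivates brassinosteroids in Arabidopsis, had an rlog of 4.65, 4.50, 4.92 and 4.28 in April and 8.10, 9.10 and 7.87 in June. No June tree came near the April range, and the log2FC was 3.77 (SE 0.47, adjusted p = 0.00218). CYP710A1 (LOC112009839), the desaturase that makes stigmasterol, had 4.02, 4.78, 4.75 and 4.24 in April and 7.46, 7.99 and 7.75 in June, a log2FC of 3.29 (SE 0.56, adjusted p = 0.00815). Its June trees spanned less than its April trees. A homolog of AT5G01300 (LOC112031465), of the phosphatidylethanolamine-binding family, had a log2FC of 3.35, with June replicates 1 and 2 at 8.76 and 8.56 and June replicate 3 lower, at 6.40. The last of the 12, a homolog of AT1G52140 (LOC111990889), had a log2FC of 3.27 (SE 0.31, adjusted p = 0.00108).

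**Figure D1:**
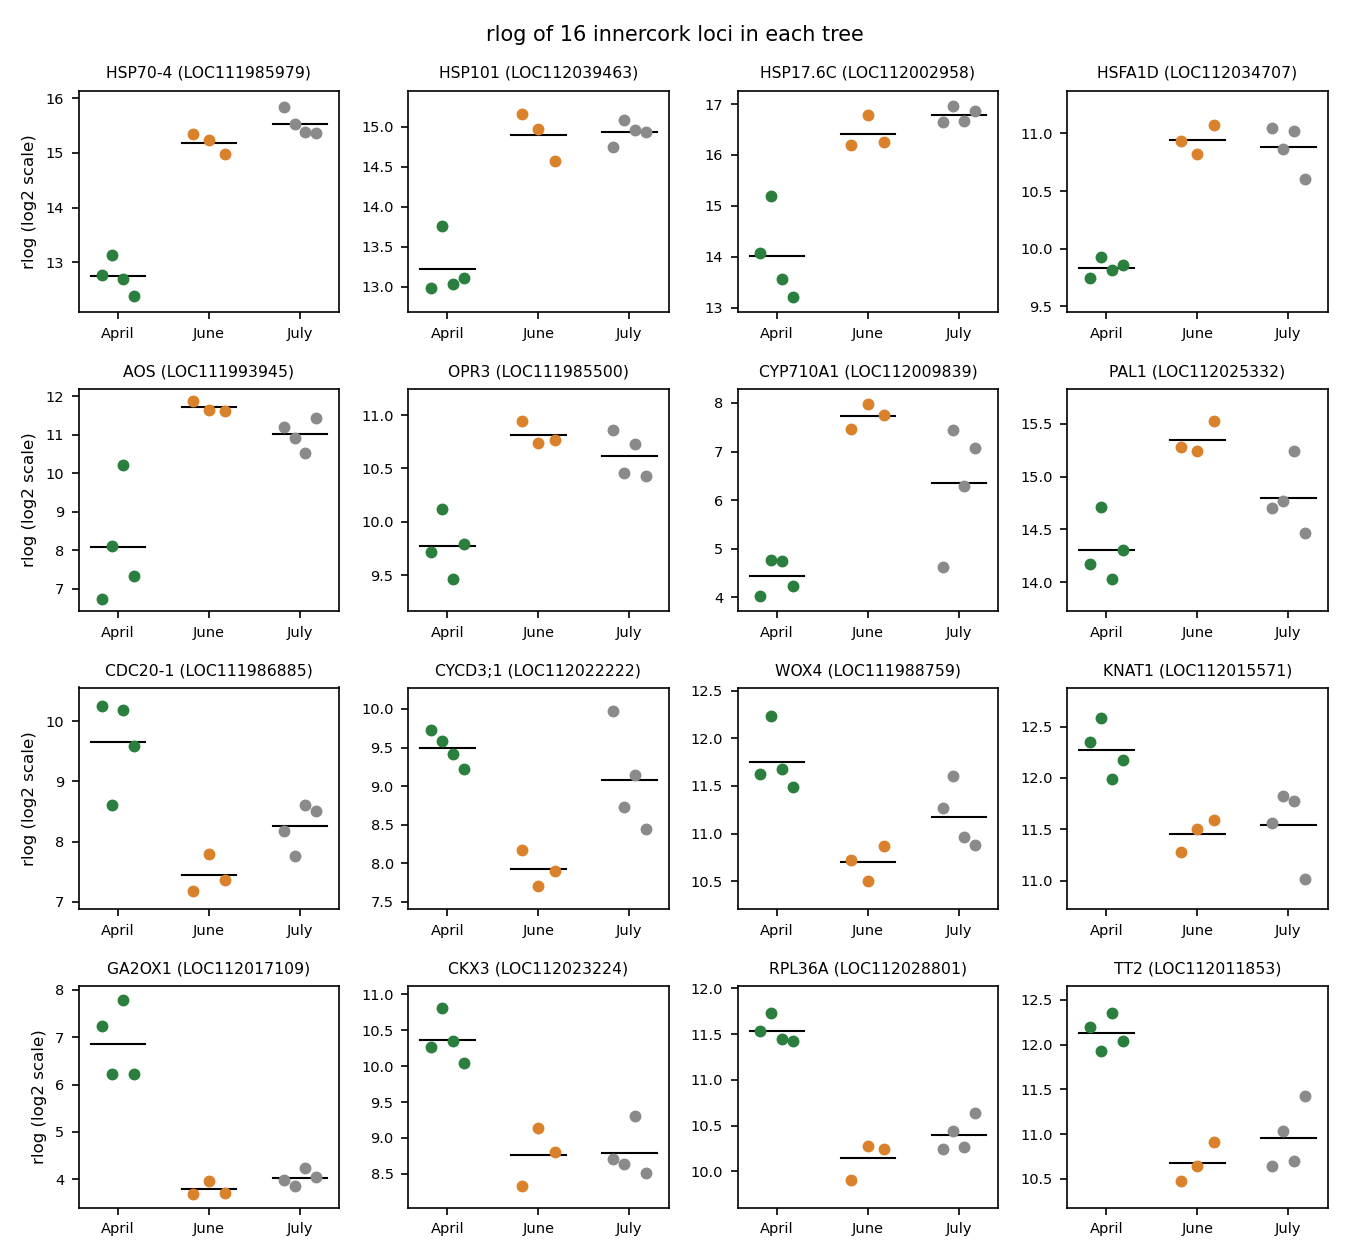
The rlog value (log2 scale) of 16 loci in each tree, with April in green, June in orange and July in grey, 1 point per tree and a line at the month mean; each panel has its own axis. April and June trees do not overlap in any panel, as in HSP70-4 with 12.39 to 13.13 in April and 14.98 to 15.34 in June.

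Small heat shock proteins had the highest median difference of the 42 gene lists examined. They keep other proteins from aggregating when they unfold, and of the 41 tested loci 11 rose, 5 of them DEGs, and 35 had a higher June mean. Their median log2FC was 1.03, against -0.02 over all loci, and none of the 41 fell at an adjusted p of at most 0.05 in limma, with 1 lower at an unadjusted p under 0.05 and 1 that fell when April replicate 2 was left out. Between 8 and 16 loci of the list rose when each tree in turn was left out. HSP17.6C (LOC112002958), the most abundant of them, had an rlog of 14.08, 15.19, 13.57 and 13.21 in April and 16.20, 16.78 and 16.25 in June. Replicate 2 was the highest April tree and still 1 unit under the lowest June tree, and the log2FC was 2.40 (SE 0.39, limma adjusted p = 0.0066).

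The other small heat shock DEGs were expressed at lower levels. HSP21 (LOC112008682), the chloroplast member, had an rlog of 7.0, 7.96, 7.09 and 6.62 in April and 10.31, 10.25 and 9.48 in June, with a log2FC of 2.85 (SE 0.30, limma adjusted p = 0.00155). Its second locus, LOC112034214, also rose, by a log2FC of 1.35 (adjusted p = 0.0111), and like other loci below that are neither DEGs nor the most abundant of their list it was chosen for naming with its values known. HSP26.5 (LOC112036142), a mitochondrial member in Arabidopsis, had a log2FC of 2.51, and the HSP22.0 loci LOC112016302 and LOC112015923, of the endoplasmic reticulum, had 2.42 and 1.49. The widest difference of the list was in an HSP17.8 locus (LOC112025927), at 4.82, 3.88, 3.69 and 4.72 in April and 8.64, 8.5 and 8.62 in June, a log2FC of 4.31 with an SE of 0.87 (adjusted p = 0.0155).

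Larger chaperones rose unevenly. Of 46 tested loci of the HSP70, HSP90 and HSP100 list, 10 rose and 5 of them were DEGs, with a median log2FC of 0.36. None fell at an adjusted p of at most 0.05 in limma, with 1 lower at an unadjusted p under 0.05 and 1 that fell when April replicate 2 was left out. HSP70-4 (LOC111985979), a cytosolic chaperone that is heat-inducible in Arabidopsis, had an rlog of 12.78, 13.13, 12.69 and 12.39 in April and 15.34, 15.23 and 14.98 in June. The April trees spanned less than 1 unit and the June trees less still, and the log2FC was 2.44 (SE 0.19, limma adjusted p = 0.000505). HSP70B (LOC112025119), another inducible HSP70, had 8.42, 8.58, 7.22 and 8.36 in April and 11.45, 11.79 and 11.36 in June, with a log2FC of 3.38 (SE 0.29, adjusted p = 0.000581). HSP101 (LOC112039463), which pulls proteins out of aggregates, had 12.98, 13.76, 13.04 and 13.11 in April and 15.16, 14.98 and 14.58 in June, with a log2FC of 1.68 (SE 0.21, adjusted p = 0.00215).

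Both HSP90.1 DEGs (LOC112015648 and LOC112015652), the inducible cytosolic HSP90, had log2FC values of 1.80 and 1.20. HSC70-1 (LOC112017273), the constitutive cytosolic HSP70 and the most abundant locus of the list, had 15.17 to 16 in April and 15.27 to 15.62 in June, and the log2FC was -0.11 (SE 0.23, adjusted p = 0.79 in limma) with overlapping months. The organelle disaggregases CLPB3 (LOC111994740) and CLPB4 (LOC112033896) rose by log2FC values of 0.88 and 1.1. Among 17 tested heat shock factors, the regulators of these genes, 3 rose, and HSFA1D (LOC112034707), a master activator in Arabidopsis, was a DEG. Its rlog was 9.75, 9.92, 9.81 and 9.86 in April and 10.94, 10.82 and 11.07 in June, a small but narrow shift with a log2FC of 1.11 (SE 0.12, adjusted p = 0.00167). HSFB1 (LOC111998872), the most abundant heat shock factor, had a log2FC of -0.10 (SE 0.19, adjusted p = 0.774).

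**Figure D2:**
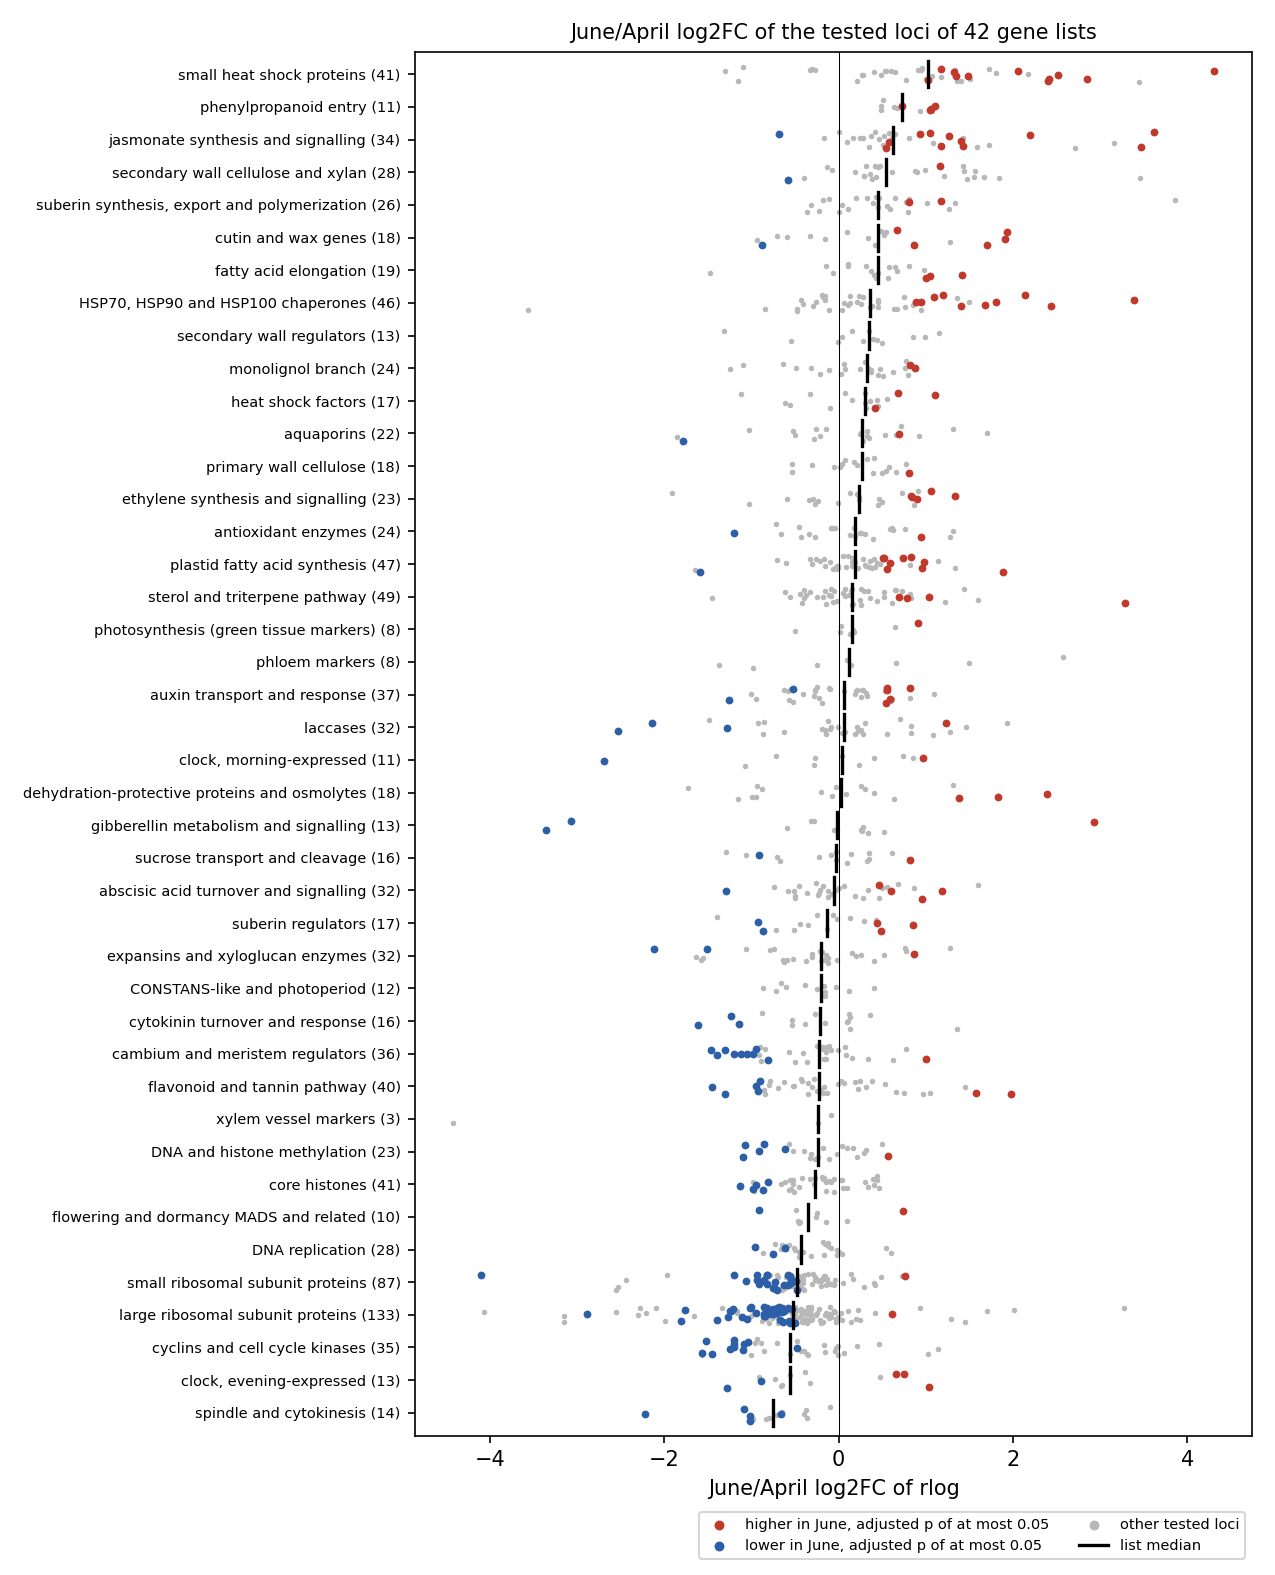
June/April log2FC of rlog (horizontal axis) of every tested locus of 42 gene lists, with the number of loci in brackets, a black line at each list's median, and coloured points for loci at an adjusted p of at most 0.05. Small heat shock proteins have the highest median, 1.03, and spindle and cytokinesis genes the lowest, -0.76.

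Jasmonate is a lipid hormone made from linolenic acid by lipoxygenase, allene oxide synthase and the later enzymes of the pathway. Of 34 tested loci of a list for its synthesis and signalling, which also holds other lipoxygenases and the hydroperoxide lyase, 32 had a higher June mean, 11 rose, 4 of them DEGs, and 1 fell, with a median log2FC of 0.63. Of these, 5 of the 11 rises and 2 of the 4 DEGs were LOX1, LOX5 or HPL1 loci, which are not steps of jasmonate synthesis, and the other rises were at AOS, OPR3, JAR1, JAZ1 and MYC2. The number that rose was 5 without June replicate 1 and at most 13 without any other tree. AOS (LOC111993945), the allene oxide synthase, had an rlog of 6.72, 8.12, 10.21 and 7.33 in April and 11.88, 11.64 and 11.60 in June. The April trees were widely spread, with April replicate 3 highest, whereas the June trees lay within 0.3 units, and the log2FC was 3.62 (SE 0.65, limma adjusted p = 0.00993). A further AOS locus (LOC112029846) had 5.70, 6.62, 5.49 and 6.07 in April and 10.26, 9.11 and 8.93 in June, with a log2FC of 3.46 (SE 0.83, adjusted p = 0.0293).

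In the main test no locus of the lipoxygenases LOX2, LOX3 and LOX6 or of the cyclase AOC4 rose or fell, nor any further AOS locus. A later step of the same pathway did differ. OPR3 (LOC111985500), the reductase that follows AOS and the cyclase, had 9.72, 10.12, 9.46 and 9.79 in April and 10.95, 10.74 and 10.77 in June, and the log2FC was 1.04 (SE 0.17, adjusted p = 0.00614 in limma). Lipoxygenases of the LOX1 type, which act on the other carbon of the fatty acid and are not known to feed jasmonate, gave the 2 most abundant loci of the list. LOX1 (LOC111995669) had 12.49, 12.81, 12.19 and 12.55 in April and 13.65, 13.69 and 13.71 in June, a log2FC of 1.17 (SE 0.20, adjusted p = 0.00766). Another LOX1 locus (LOC111988550), listed as a pseudogene in RefSeq, was higher in level, with 15.39 to 15.88 in April and 16.87 to 17.06 in June, and had a log2FC of 1.41 (adjusted p = 0.0149). LOX5 (LOC112036712), also of that type, was a DEG with a log2FC of 1.42. Downstream, the transcription factor MYC2 (LOC112012448) rose by a log2FC of 0.93 (adjusted p = 0.0225), and of its JAZ repressors JAZ1 (LOC112038919) rose by 0.57 while JAZ3 (LOC112010494) fell by 0.69 on the log2 scale. HPL1 (LOC111999205), the hydroperoxide lyase that competes with AOS for its substrate, rose by a log2FC of 2.2 (adjusted p = 0.0321).

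Genes of the other stress hormones moved less as groups. In the ethylene list 5 of 23 loci rose, with a median log2FC of 0.23. EIN3 (LOC112009295), the central transcription factor of the ethylene response, had an rlog of 11.27, 11.82, 11.98 and 11.84 in April and 12.94, 12.97 and 13.26 in June. The months were apart by nearly 1 unit, with a log2FC of 1.33 (SE 0.16, limma adjusted p = 0.00212), and the more abundant EIN3 locus (LOC111991923) rose by 0.84 (adjusted p = 0.0105). EBF1 (LOC111994331), the F-box protein that degrades EIN3, and its target ERF1 (LOC112020158) rose by log2FC values of 0.83 and 1.06. Of 32 abscisic acid loci 4 rose and 1 fell, with a median of -0.06. ABF3 (LOC112024391), a transcription factor of the drought response, rose by 0.96 (SE 0.13, adjusted p = 0.00283), and the receptor PYR1 (LOC112029640) fell by 1.29 on the log2 scale (adjusted p = 0.0301).

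Galactinol synthases start the raffinose sugars that protect membranes and proteins in dry or heated cells. GOLS1 (LOC112028689) had 7.88, 6.80, 7.73 and 7.62 in April and 10.02, 9.63 and 10.04 in June. April replicate 2 was its lowest tree, no June tree was near the April range, and the log2FC was 2.39 (SE 0.33, limma adjusted p = 0.00303). A further GOLS1 locus (LOC112037269) and GOLS2 (LOC112026042) rose by 1.38 and 1.82, and these 3 loci were the ones that rose among the 18 of the dehydration list, whose median log2FC was 0.03. COR47 (LOC112012617), a dehydrin and the most abundant locus of the list, had a log2FC of 0.30 (SE 0.25, adjusted p = 0.449).

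The entry into phenylpropanoid metabolism, which supplies ferulic acid to suberin and monolignols to lignin, was higher in June at each of its 11 tested loci, of which 4 rose, with a median log2FC of 0.73. No locus of it was a DEG, and 8 of the 11 were higher at an unadjusted p under 0.05 in limma, against 14.2% of all loci. PAL1 (LOC112025332), which removes ammonia from phenylalanine in the first step, had an rlog of 14.17, 14.71, 14.03 and 14.30 in April and 15.28, 15.24 and 15.53 in June. The April tree nearest to June was replicate 2, and the log2FC was 1.05 (SE 0.21, adjusted p = 0.015). The other PAL1 locus (LOC112025299) followed the same pattern over the trees, and reads of such near copies may have been split or shared in counting. The ligase 4CL2 (LOC112001847) rose by 1.11 (SE 0.20, adjusted p = 0.0111), and PAL2 (LOC112009271), the most abundant locus, had a log2FC of 0.64 (SE 0.29, adjusted p = 0.175) with overlapping months. A homolog of AT1G22410 (LOC112026328), the enzyme that opens the shikimate pathway and so the supply of phenylalanine, was among the 5 most abundant rising DEGs. It had 14.49, 14.92, 14.18 and 14.27 in April and 16.12, 15.54 and 15.57 in June, a log2FC of 1.28 (SE 0.20, adjusted p = 0.0062).

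In the list for suberin synthesis, export and polymerization 21 of 26 loci were higher in June and 2 rose, with a median log2FC of 0.46 that was 0.15 under quantile normalization. The loci that rose were 7.69% of the list, close to the 5.57% of all loci. CYP86A1 (LOC112038977), the fatty acid hydroxylase of suberin and the most abundant locus, had an rlog of 17.32, 18.45, 17.22 and 17.58 in April and 18.76, 18.76 and 18.45 in June, so that April replicate 2 met the lowest June tree. Its log2FC was 1.02 (SE 0.31, limma adjusted p = 0.0623), and 1.29 (adjusted p = 0.00254) without that tree. Without April replicate 2, 7 of the 26 loci rose. In a separate list of suberin regulators 11 of 17 loci were lower in June, 3 rose and 2 fell, with a median log2FC of -0.13.

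Fatty acid elongation, which lengthens the chains, had 3 of 19 loci rising and a median of 0.45. KCS4 (LOC112038607), a condensing enzyme, rose by 1.04 on the log2 scale (SE 0.25, limma adjusted p = 0.0279). In the plastid, where fatty acids are made, 9 of 47 loci rose and 1 fell, and 17 were lower in June, with a median of 0.18 that was -0.01 under quantile normalization, so its direction depended on the scaling. KASII (LOC112013099), which extends palmitate to stearate, had 10.49, 9.97, 11.65 and 9.63 in April and 12.58, 12.64 and 11.73 in June, with a log2FC of 1.88 (SE 0.41, adjusted p = 0.0212). April replicate 3 was nearly as high as the lowest June tree. The thioesterase FATB (LOC112027571) and the desaturase DES5 (LOC112039350) rose by 0.95 and 0.98. More abundant loci of KASII and FATB did not rise. KASII had -0.002 at LOC112022502 (limma adjusted p = 0.992), and FATB had -0.71 at LOC112028149 (adjusted p = 0.0526). A less abundant KASII locus (LOC112022500) had -1.65 (adjusted p = 0.0844). In the cutin and wax list 5 of 18 loci rose and 1 fell. Its glycerol acyltransferase GPAT6 (LOC111983156) had 10.96, 10.71, 9.23 and 9.67 in April and 11.99, 12.28 and 11.97 in June, a log2FC of 1.94 (SE 0.49, adjusted p = 0.0351).

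Sterols and triterpenes share the mevalonate route, and 4 of its 49 loci rose, with a median of 0.16 and 19 loci lower in June. HMG1 (LOC112003066), the reductase that limits that route, was the most abundant locus and a DEG. It had an rlog of 14.62, 14.94, 14.71 and 14.91 in April and 15.89, 15.78 and 15.83 in June, with narrow, separate months and a log2FC of 1.04 (SE 0.15, limma adjusted p = 0.00423). Squalene epoxidase SQE1 (LOC111990232) rose by 0.69 (adjusted p = 0.0175). Secondary wall genes for cellulose and xylan had a median of 0.54 with 24 of 28 loci higher in June, of which 1 rose, while 1 locus fell. The share that rose or fell was 8.16% of the sterol and triterpene loci and 7.14% of these wall loci, against 9.81% of all loci.

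Several homologs were represented by more than 1 changing locus. Of the 305 homologs with a DEG, 125 had a single tested locus and 16 had 2 or more DEGs, all higher in June in 12 homologs and in both directions in 4. As a background, 58.7% of the 2744 homologs with exactly 2 tested loci had both differences of the same sign. That share counts loci whether called or not, so it is not a rate for DEGs. AT1G60420, a nucleoredoxin of the thioredoxin family that protects antioxidant enzymes in Arabidopsis, was the homolog with 3 or more DEGs, and all 6 of its tested loci rose. LOC112028028 had an rlog of 9.87, 10.12, 10.80 and 9.32 in April and 12.81, 12.99 and 13.14 in June, with a log2FC of 2.95 (SE 0.33, limma adjusted p = 0.00168). LOC111996453 had 10.63, 9.92, 10.99 and 11.01 in April and 13.92, 13.01 and 13.23 in June, with 2.75 (SE 0.35, adjusted p = 0.00235). Its other DEGs, LOC112029598 and LOC111996451, had 2.92 and 2.23, and the remaining loci LOC111996468 and LOC112029599 had 2.67 and 1.84. April and June trees did not overlap at any of the 6 loci. Locus numbers that follow each other closely may belong to tandem copies with shared reads, which makes the levels of single copies uncertain.

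The other homologs with several rising DEGs were of varied function. Germin-like protein AT5G39110, of an extracellular family, had 5 tested loci with differences of 0.79 to 3.43 and DEGs at LOC112024690 (3.43) and LOC112024687 (2.15). The former had an rlog of 4.23, 5.53, 4.15 and 5.42 in April and 7.33, 8.82 and 8.64 in June. April replicates 2 and 4 were the highest April trees at 4 of these 5 loci. The glutathione transferase AT3G09270, of the tau class that conjugates toxic compounds, had 8 tested loci with DEGs at LOC111995998 (log2FC 3.35) and LOC112032817 (2.07), while 2 other loci of it had negative differences. The AP2/ERF-type regulator AT5G52020 had DEGs at LOC112036778 (2.85, SE 0.24, limma adjusted p = 0.000581) and LOC111996323 (1.96). AT3G18290, which in Arabidopsis is an E3 ligase that restrains iron uptake, had 2 tested loci and both were DEGs, with 1.27 at LOC112032328. The exocyst subunit AT4G31540 had DEGs at LOC112020585 (1.70) and LOC112004474 (1.09).

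Copies of 4 homologs went opposite ways. For alpha tubulin AT5G19770, of the microtubules, the abundant locus LOC112004723 had 13.84, 14.37, 13.64 and 13.75 in April and 12.96, 12.89 and 12.83 in June, and the log2FC was -1.01 (SE 0.17, adjusted p = 0.0077 in limma). The less abundant LOC112003899 had 7.32, 7.68, 7.47 and 7.77 in April and 9.40, 8.62 and 8.77 in June, a log2FC of 1.37 (SE 0.20, adjusted p = 0.00447). Both separated the months fully. For the B-box protein AT4G27310, of a family of light-signalling regulators, LOC112040657 had -1.41 and LOC111993646 had 1.81. For the nitrate exporter AT3G45650, LOC112017580 had -1.22 and LOC112009366 had 1.34. AT2G34930, a leucine-rich repeat protein with 89 tested loci, had LOC111993838 at -1.57 and LOC112015877 at 1.54.

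**Figure D3:**
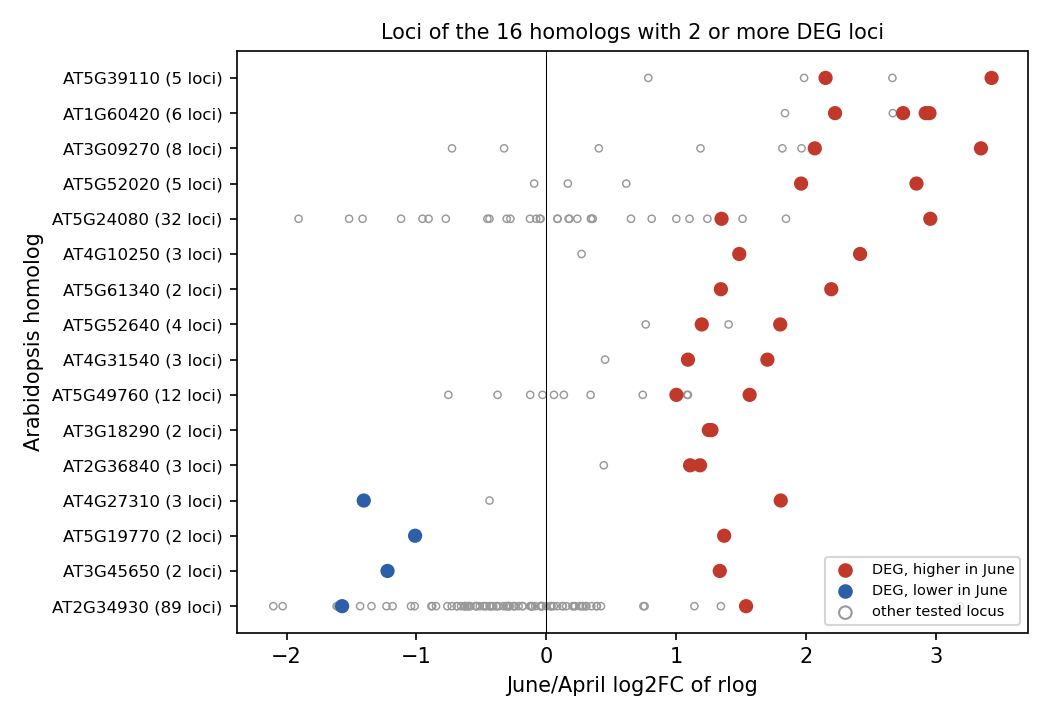
June/April log2FC of rlog (horizontal axis) of every tested locus of the 16 Arabidopsis homologs with 2 or more DEGs, with filled points for DEGs and open points for other loci. All 6 loci of AT1G60420 lie between 1.84 and 2.95, and the last 4 homologs have a DEG on each side of 0.

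Among the largest falls were those of a kinesin and a channel. A homolog of AT3G20150 (LOC111993237), a kinesin motor, had an rlog of 9.49, 8.76, 9.64 and 8.35 in April and 3.42, 4.07 and 3.44 in June, and the log2FC was -5.42 (SE 0.92, adjusted p = 0.00801 in limma). The cyclic nucleotide-gated channel homolog of AT5G53130 (LOC112040827) had 8.91, 8.30, 8.80 and 8.81 in April and 4.00, 4.07 and 4.01 in June, a log2FC of -4.68 (SE 0.76, adjusted p = 0.00646). At both loci the June trees were at the low end of the tested range while every April tree was above 8. A homolog of AT5G14920 (LOC112020182), a small secreted gibberellin-regulated protein, was the most abundant of the 12 largest falls. It had 12.76, 13.08, 12.67 and 12.85 in April and 9.48, 10.89 and 10.64 in June, with June replicate 1 lowest and a log2FC of -2.51 (SE 0.30, adjusted p = 0.00212).

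Transport and wall enzymes were also among the leading falls. The secreted peroxidase homolog of AT5G06720 (LOC112028402) had 11.07, 12.50, 11.58 and 10.80 in April and 8.66, 8.14 and 9.03 in June, and the log2FC was -2.87 (SE 0.45, adjusted p = 0.00561 in limma). The nitrate transporter homolog of AT1G32450 (LOC111989253), which loads the xylem in Arabidopsis, had 10.00, 8.45, 8.34 and 8.38 in April and 5.75, 5.68 and 6.85 in June, a log2FC of -2.70 (SE 0.47, adjusted p = 0.00864). Its months stayed apart although April replicate 1 was the highest by far. The cytochrome P450 homolog of AT4G31940 (LOC111999523) had -3.14, and the early nodulin-like homolog of AT4G31840 (LOC112037219) -2.65. The calmodulin-binding homolog of AT5G62570 (LOC112020172) had -2.31.

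The lists of genes for cell division had medians below 0. In bulk tissue such as this, fewer cells of a type and less RNA per cell cannot be told apart. Of 14 loci for the spindle and cytokinesis all had a lower June mean and 5 fell, with a median log2FC of -0.76. CDC20-1 (LOC111986885), the activator of the anaphase-promoting complex, was the DEG among them, with an rlog of 10.26, 8.61, 10.19 and 9.59 in April and 7.17, 7.80 and 7.35 in June. April replicate 2 was the April tree nearest to June, and the log2FC was -2.22 (SE 0.38, limma adjusted p = 0.00817). KNOLLE (LOC111996203), the syntaxin of the cell plate, had 10.31, 10.70, 10.24 and 10.10 in April and 8.70, 9.69 and 9.36 in June, a log2FC of -1.09 (SE 0.31, adjusted p = 0.0496). PLEIADE (LOC112026391), the most abundant locus of the list, had a log2FC of -0.10 (SE 0.20, adjusted p = 0.784).

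Cyclins and cell cycle kinases had 30 of 35 loci lower in June and 11 that fell, with a median of -0.55. None was a DEG, 19 were lower at an unadjusted p under 0.05 in limma, against 14.1% of all loci, and the number that fell was 2 without June replicate 1 and 17 without April replicate 2. CYCD3-1 (LOC112022222), which drives the entry into division, had 9.73, 9.59, 9.42 and 9.23 in April and 8.17, 7.70 and 7.90 in June, with a log2FC of -1.56 (SE 0.31, adjusted p = 0.0154). The mitotic B-type cyclins that fell, 6 loci of CYCB1-2, CYCB1-3, CYCB2-3 and CYCB2-4, all had log2FC values of -1.04 or lower. A further CYCD3-1 locus (LOC112038380), of similar level in April, had 0.06 (SE 0.17, adjusted p = 0.846). CDKA1, the kinase the cyclins bind, had -0.03 (SE 0.14, adjusted p = 0.918) at its abundant locus (LOC112012085), and a less abundant locus (LOC111999608) fell by 0.48 on the log2 scale (adjusted p = 0.0496). In DNA replication 3 of 28 loci (10.7%) fell, against 4.23% of all loci, with a median of -0.43. The most abundant locus of that list, RNR1 (LOC112027508), a subunit of ribonucleotide reductase, had 0.04. Among 41 core histones 5 fell, with a median of -0.28.

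Regulators of the cambium and meristems had 29 of 36 loci lower in June, of which 9 fell, while 1 rose. None was a DEG, 15 were lower at an unadjusted p under 0.05 in limma, against the same 14.1%, and the number that fell was 0 without June replicate 1 or June replicate 2 and 12 without April replicate 2. WOX4 (LOC111988759), which keeps cambium cells dividing, had an rlog of 11.63, 12.23, 11.67 and 11.49 in April and 10.72, 10.51 and 10.87 in June. The months were separate, with a log2FC of -1.06 (SE 0.21, adjusted p = 0.0158). KNAT1 (LOC112015571), a meristem homeobox gene, had 12.34, 12.58, 11.99 and 12.17 in April and 11.28, 11.51 and 11.59 in June, a log2FC of -0.81 (SE 0.20, adjusted p = 0.0339). Its relative STM (LOC111993990) had 11.17, 11.82, 11.46 and 11.65 in April and 10.04, 10.18 and 10.17 in June, a log2FC of -1.40 (SE 0.29, adjusted p = 0.0179). ANT (LOC111985236), which sustains growth of dividing organs and was the most abundant locus of the list, had 13.07, 13.35, 12.84 and 12.65 in April and 11.69, 11.30 and 11.56 in June, a log2FC of -1.46 (SE 0.33, adjusted p = 0.0251). HB8 (LOC112029705), a homeobox gene of the procambium, rose by 1.00 (SE 0.21, adjusted p = 0.0177). Together the 36 loci held 0.112 to 0.136% of the summed linear values in April and 0.0692 to 0.0746% in June.

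Most ribosomal protein loci had a lower June mean, by amounts that differed between loci. Of 133 tested loci of the large subunit 36 fell and 1 rose, with a median log2FC of -0.52, and of 87 of the small subunit 25 fell and 1 rose, with a median of -0.47. They supplied 11 of the 104 DEGs lower in June. RPL36A (LOC112028801) had an rlog of 11.53, 11.73, 11.45 and 11.42 in April and 9.90, 10.28 and 10.25 in June, and the log2FC was -1.39 (SE 0.14, adjusted p = 0.00126 in limma). RPL36 (LOC111992988) had -1.21 with an SE of 0.11 (adjusted p = 0.000984), and RPS9 (LOC112032065) had -1.20 (SE 0.17, adjusted p = 0.00364). The most abundant loci moved less, with -0.09 (SE 0.19, adjusted p = 0.79) for RPL10 (LOC112005106) and -0.27 (SE 0.20, adjusted p = 0.387) for RPS27A (LOC112034014), where the months overlapped. April replicate 2 had the highest level of both lists among all trees. Without June replicate 1, 12 loci of the large and 5 of the small subunit fell. With the trees centred on their median it was 27 and 16, and with quantile normalization 57 and 41. The ribosomal RNA share that remained after filtering was higher in the June trees, where these lists were lower, and its part in them was not tested. Among the 5 most abundant falling DEGs was a poly(A)-binding protein homolog of AT2G23350 (LOC111995783) with a log2FC of -1.15 (SE 0.15, adjusted p = 0.0026).

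Genes of chromatin methylation included 2 DEGs lower in June. CLF (LOC111988803), a Polycomb methyltransferase, had 10.33, 9.71, 10.25 and 10.15 in April and 9.0, 8.96 and 9.16 in June, and the log2FC was -1.07 (SE 0.17, adjusted p = 0.00681 in limma). ULT1 (LOC112024131), which counters Polycomb repression at floral genes in Arabidopsis, had 12.79, 13.18, 12.84 and 12.70 in April and 11.88, 11.69 and 11.78 in June, a log2FC of -1.09 (SE 0.12, adjusted p = 0.00172). The months did not overlap at either locus. In the whole list 5 of 23 loci fell and 1 rose, with a median of -0.24. A homolog of AT2G35160 (LOC112000998), a histone H3 lysine methyltransferase, was among the 12 largest falls with -2.33 (SE 0.24, adjusted p = 0.00155).

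In the lists of growth hormone genes, 1 of 13 gibberellin loci rose and 2 fell (median log2FC -0.01), 3 of 16 cytokinin loci fell (median -0.22), and 5 of 37 auxin loci rose and 2 fell (median 0.06). GA2OX1 (LOC112017109), which inactivates gibberellin, had an rlog of 7.23, 6.22, 7.78 and 6.22 in April and 3.70, 3.96 and 3.71 in June, with a log2FC of -3.07 (SE 0.35, limma adjusted p = 0.00182). GA2OX6 (LOC112036055), of the same enzyme family and listed as a noncoding RNA in RefSeq, fell by 3.36 on the log2 scale (adjusted p = 0.0286). RGL1 (LOC112035777), a DELLA repressor of the gibberellin response, went the other way, with 6.81, 9.12, 9.41 and 8.46 in April, 11.62, 10.98 and 11.54 in June and a log2FC of 2.93 (SE 0.51, adjusted p = 0.00843). April replicate 1 was far under the other April trees at this locus. CKX3 (LOC112023224), which degrades cytokinin, had 10.26, 10.82, 10.35 and 10.04 in April and 8.33, 9.14 and 8.80 in June, a log2FC of -1.61 (SE 0.25, adjusted p = 0.00598). The cytokinin response genes ARR9 (LOC112033539) and CRF4 (LOC112020213) fell by 1.15 and 1.24 on the log2 scale. In auxin signalling IAA29 (LOC111986606), a repressor of low level here, was a DEG with -1.26 (SE 0.22, adjusted p = 0.00843), whereas IAA9 (LOC111997593) rose by 0.82 (SE 0.10, adjusted p = 0.00223) and ARF2, IAA16, IAA26 and a further IAA9 locus rose by 0.54 to 0.58. The auxin importer AUX1 (LOC112022443), the most abundant locus of its list, fell by 0.52 on the log2 scale (SE 0.14, adjusted p = 0.0402).

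Flavonoid and tannin genes had 5 loci that fell and 2 that rose among 40. TT2 (LOC112011853), the MYB regulator of proanthocyanidin synthesis, had 12.19, 11.93, 12.35 and 12.04 in April and 10.48, 10.64 and 10.91 in June, and the log2FC was -1.45 (SE 0.19, adjusted p = 0.00283 in limma). The tannin precursor transporters TT12 (LOC112006936 and LOC112006937) fell by 0.95 and 0.91 on the log2 scale. F3'H loci, for the hydroxylase of the flavonoid B ring, went both ways, with 1.98 at LOC112039568 and -1.30 at LOC112028052. CHS (LOC112025740), the first enzyme and the most abundant locus, ranged from 14.59 to 17.53 in April and from 16.38 to 17.33 in June, a log2FC of 0.19 (SE 0.61, adjusted p = 0.865).

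Clock genes were called in both directions. LUX (LOC112032157), of the evening complex, had an rlog of 7.65, 7.83, 7.73 and 7.99 in April and 9.03, 8.78 and 8.70 in June, and the log2FC was 1.04 (SE 0.14, adjusted p = 0.00283 in limma). ZTL (LOC112017148), the F-box protein that degrades clock proteins, rose by 0.75 (SE 0.10, adjusted p = 0.00301), and its targets TOC1 (LOC112023030) and PRR5 (LOC112004762) fell by 0.89 (adjusted p = 0.00786) and 1.28 (adjusted p = 0.0293) on the log2 scale. Of the morning genes LHY (LOC112036661) rose by 0.97 (adjusted p = 0.0399) and LNK2 (LOC111991752) fell by 2.69 on the log2 scale (adjusted p = 0.0347). The hour of harvest is not given in the sources used here, and for these genes month and hour cannot be told apart. AGL19 (LOC111989313), a MADS-box gene that promotes flowering in Arabidopsis, fell by 0.92 on the log2 scale (SE 0.12, adjusted p = 0.00235), and SOC1 (LOC112012679), the most abundant of that list, had -0.26 (SE 0.20, adjusted p = 0.434).

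Other lists had medians close to that of all loci or calls in both directions. Aquaporins (22 loci), antioxidant enzymes (24) and sucrose genes (16) each had 1 locus that rose and 1 that fell, with medians of 0.26, 0.19 and -0.03. These calls were 9.09, 8.33 and 12.5% of the 3 lists, against 9.81% of all loci that rose or fell. Among 32 laccases, which couple monolignols, 1 rose and 3 fell, and LAC14 alone had both, with LOC111993993 at 1.23 and LOC112039872 at -2.53. Expansins and xyloglucan enzymes, which loosen walls as cells enlarge, had 1 locus that rose and 2 that fell among 32, and the level of the list was high in April replicate 2. The share that rose or fell was 12.5% of the laccases and 9.38% of the expansin and xyloglucan list. In phloem markers none of 8 loci was called in limma, with 1 at an unadjusted p under 0.05. SEOR1 (LOC111994151), a sieve element protein, had 13.29, 13.50, 12.48 and 12.11 in April and 14.35, 14.03 and 14.64 in June, a log2FC of 1.5 (SE 0.49, adjusted p = 0.0777), and it was higher by 1.72 (adjusted p = 0.0418) without April replicate 2 and also passed 0.05 with weights per tree, without July replicate 4 and with only the April and June trees.

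Individual trees followed the difference to different degrees. Each tree was left out in turn, the 500 loci with the smallest June/April p in the other trees were taken, and the tree was placed between their April mean (0) and June mean (1). April replicates 1, 4 and 3 lay at 0.04, 0.13 and 0.27, and April replicate 2 at 0.47, midway between the months. June replicates 1, 2 and 3 lay at 0.86, 0.86 and 0.73. July trees, which did not choose the loci, lay between 0.75 and 0.84, within the range of the June trees. Their axis came from the April and June trees alone and so differs from those used for the June trees. In April replicate 2, 50% of the 500 loci were on the June side of the midpoint, against 4.6 to 16.2% in the other April trees and 86.6 to 91.4% in the June trees. By this share the July trees, at 74.6 to 86.2%, were all below the June trees.

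**Figure D4:**
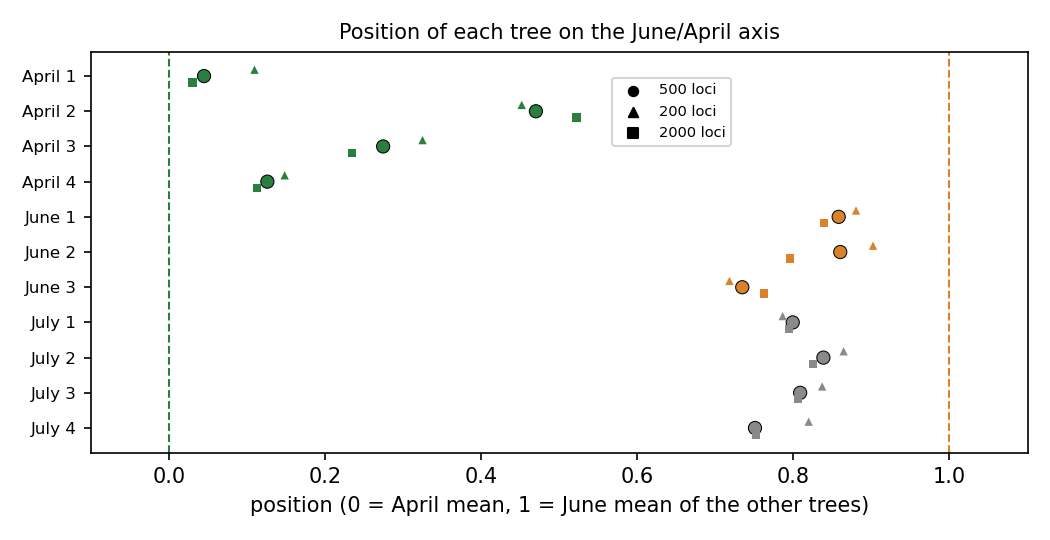
Position of each tree between the April mean (0) and the June mean (1), from 500 loci (circles), 200 loci (triangles) or 2000 loci (squares) chosen without that tree where it is an April or June tree. April replicate 2 lies at 0.47 with 500 loci and the June trees lie at 0.73 to 0.86.

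Judged by DEGs of fits that left the tree out, April replicates 1 and 4 were on the April side at 94.9% of 117 and 94.4% of 162 DEGs, and April replicate 3 at 81.8% of 220. April replicate 2 was on the April side at 44.0% of the 934 DEGs found without it. June replicates 1, 2 and 3 were on the June side at 91.7% of 24, 96.4% of 28 and 84.4% of 141 DEGs. With each locus centred on its mean over the 11 trees, values of April replicates 1, 3 and 4 correlated at 0.275 to 0.439 across genes, which are not independent, and those of April replicate 2 correlated at -0.10 to 0.06 with them and at -0.17 to -0.15 with the June trees. The June trees correlated at 0.01 to 0.10 with each other.

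The lists differed in where April replicate 2 stood. The level of a list in a tree was taken as the median over its loci of rlog minus the mean of 11 trees. For suberin synthesis it was -0.36, 0.36, -0.45 and -0.17 in the April trees and 0.37, 0.39 and 0.23 in June, so that April replicate 2 sat among the June trees. For phenylpropanoid entry it was -0.41, 0.11, -0.65 and -0.33 in April and 0.44, 0.54 and 0.34 in June, with that tree in between. Small heat shock proteins gave -0.72, -0.65, -0.75 and -1.08 in April and 0.14, 0.32 and 0.21 in June, and here April replicate 2 stood with the April trees. The same held for jasmonate genes, at -0.49, -0.24, -0.60 and -0.40 in April and 0.41, 0.29 and 0.57 in June. Spindle and cytokinesis genes gave 0.42, 0.39, 0.41 and 0.21 in April and -0.69, -0.19 and -0.33 in June, with June replicate 1 lowest. That tree was also the lowest for cyclins, at -0.67 against -0.26 and -0.23 in the other June trees.

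**Figure D5:**
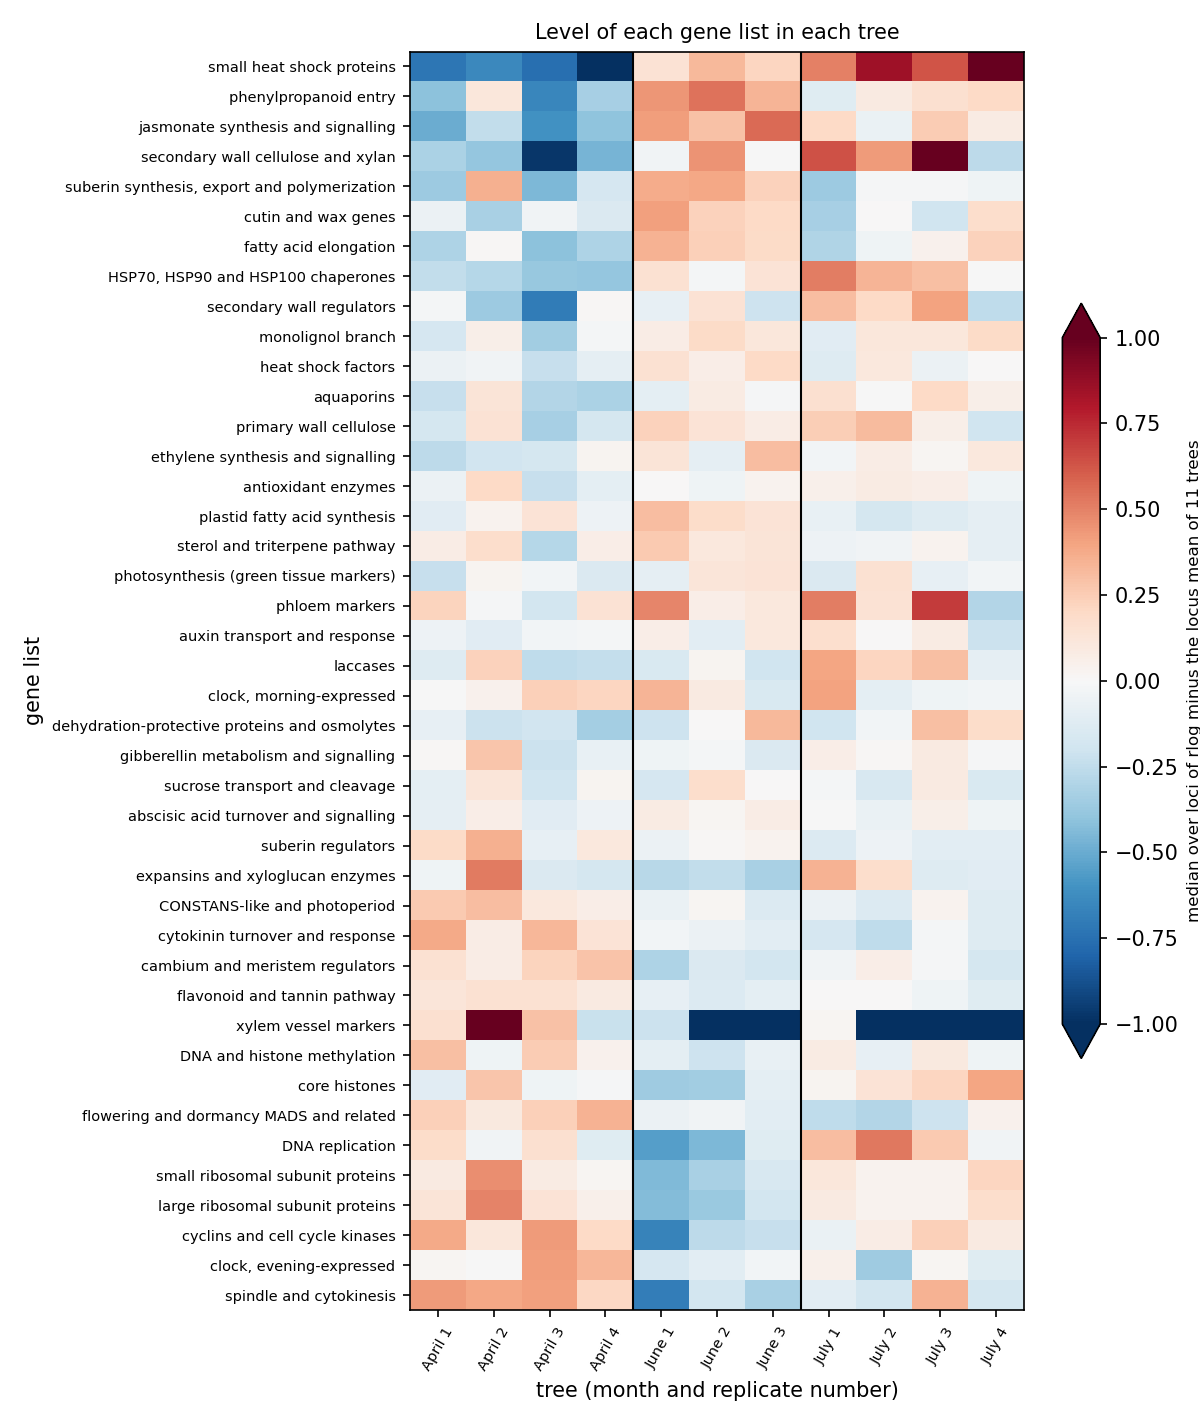
Level of 42 gene lists (vertical axis) in each of the 11 trees (horizontal axis), as the median over the loci of a list of rlog minus the locus mean of 11 trees, in colour from blue (-1 or lower) to red (1 or higher) on the log2 scale. In April replicate 2 suberin synthesis (0.36) is at the level of the June trees while small heat shock proteins (-0.65) stay with the other April trees.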

How the data were processed

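Polyadenylated RNA of 11 trees was sequenced by the authors, who filtered ribosomal RNA from the reads with riboPicker. They mapped the reads with STAR 2.5.3a to the CorkOak1.0 genome and assigned Arabidopsis (TAIR10) identifiers by protein similarity. The deposited values are rlog values on the log2 scale that the authors made with DESeq2. All 11 value columns were mapped to a tree. The strand setting of the counting is not given in the sources used here. Here, limma 3.58.1 (R 4.3.3) was fitted to rlog with month as the factor over 11 trees and a variance trend (eBayes, 2.38 prior degrees of freedom), with Benjamini-Hochberg adjustment over 22426 loci. The test was checked on simulated data with independent noise of equal spread in all trees at a given locus. Such data hold no tree that stands apart, so the check does not cover trees such as April replicate 2. The median residual SD was 0.302, which sets the precision. The p-values set the June/April difference against the spread between trees within months, which were separate individuals. Each month was a single harvest, so they do not cover variation between days.

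Lists of 978 Arabidopsis genes gave 1171 tested loci. Members and lists were chosen with earlier results of these data known, so lists were described and not tested. Named loci were the 12 largest rises and falls among DEGs with an identifier and separate months, DEGs in a list, the most abundant locus of each list, homologs with 3 or more DEGs, and the 5 most abundant DEGs in each direction; others were named after their values were seen. Of these loci, 2 are not reported here. Gene biotypes came from the RefSeq table of assembly Cork oak 2.0, by locus name, with no coordinates. Alternatives covered the minimum level, a pseudocount, normalization, variance prior, tree weights, the trees in the fit, the replicate number as a block and leaving out each tree. Figures used matplotlib 3.10.9.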

Additional observations from a re-analysis of the deposited data

Results flagged for a closer look

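In 11 of 112 groups of 4 April trees examined, 1 tree lay farther from its nearest neighbour, relative to the range of the group, than Dixon's 95% critical value allows. Chance gives about 1 such group in 20 where groups are independent. These groups share the same 4 trees, so their number was not tested against chance. April replicate 2 was the tree in 6 of them, April replicate 3 in 3, and April replicates 4 and 1 in 1 each. The June trees were too few to examine.

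April replicate 2 was high for HSP101 (LOC112039463), with an rlog of 13.7629 against 12.98 to 13.11 in the other April trees, and for RPL22 (LOC111995168), with 12.6649 against 12.19 to 12.25. It was low for the homologs of AT2G01400 (LOC111989597), with 5.8498 against 7.12 to 7.27, and AT5G24580 (LOC112004080), with 14.8564 against 15.16 to 15.20. Its level of the small ribosomal subunit list was 0.4624 against 0.021 to 0.090, and that of the 3 xylem vessel markers 2.8574 against -0.224 to 0.295.

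April replicate 3 was low for HSP70B (LOC112025119), with 7.2249 against 8.36 to 8.58, and for the GMC oxidoreductase (LOC112037246), with 8.223 against 8.82 to 8.88, and high for the homolog of AT3G07040 (LOC112003530), with 5.1256 against 3.94 to 4.11. April replicate 4 was low in the level of the spindle and cytokinesis list, with 0.2058 against 0.387 to 0.422. April replicate 1 was high for the nitrate transporter homolog of AT1G32450 (LOC111989253), with 10.0004 against 8.34 to 8.45.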

How the results depend on the processing

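The main test gave 223 DEGs higher and 104 lower in June, and 1250 loci that rose and 949 that fell. With weights per tree (arrayWeights) the counts were 628 and 678 DEGs and 3301 and 3457 loci. With only the April and June trees, DEGs were 93 and 36. Leaving out each tree in turn gave 16 to 443 DEGs higher and 8 to 491 lower, and 410 to 2309 loci that rose and 250 to 2493 that fell. The lowest values came without June replicate 1 and the highest without April replicate 2. An alternative chosen after seeing the data left out April replicate 2 and July replicate 4, the trees of lowest weight (0.26 and 0.397), and gave 532 and 656 DEGs and 2898 and 3004 loci. The remaining alternatives stayed within 1.5 times of the main counts.

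With the replicate number as a block, DEGs were 41 and 14, and 797 loci rose and 527 fell. April and June trees with the same number had correlations of -0.077, -0.035 and -0.032 after centring. The block and these pairs used the replicate numbers of the sample titles. In the library names, June replicates 2 and 3 are ju3 and ju4, which would match April replicates 3 and 4 (-0.005 and 0.014). No pairing by number was seen.

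Of the 70 DEGs that the rule for named loci chose, none of 1536 values under the alternatives changed sign. They remained DEGs in 8 cases without June replicate 1, 10 without June replicate 2, 29 without June replicate 3, 28 without April replicate 1, 62 without April replicate 2, 40 without April replicate 3 and 35 without April replicate 4. Within the replicate block 14 remained, and with only April and June trees 26. Of the 42 list medians, 31 kept their sign under every alternative run, and the others, all of them within 0.2 of 0, were those of morning clock, plastid fatty acid, laccase, abscisic acid, dehydration, auxin, gibberellin, antioxidant, sucrose, photosynthesis and phloem genes. With 200 loci July replicate 4 lay at 0.8195 on the axis between the months instead of 0.7507. The minimum of log2 of 50 gave no value for the xylem vessel list. The planned promoter motif counts, with their alternative, were not run, since no promoter sequence was used here.

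The depth of each tree cannot be read from rlog, counting error is not given, and rlog understates differences of loci with few reads. Most of the 70 DEG calls were lost without any 1 of June replicates 1, 2 and 3 or April replicate 1, and 35 without April replicate 4. Months are different trees and single harvests, so tree, day and month cannot be told apart.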
